A study of Mus musculus with 6 samples.

Results

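The 10 genes described here handle lipid at the cell surface, in the cytoplasm and in lipoprotein particles: Lpl, Angptl4, Cd36, Fabp4, Plin2, Plin4, Gpd1, Pnpla2, Apoe and Apod. They were taken by symbol from a table of 52997 gene symbols, in which all 10 were present, and 9 of the 10 passed the filter on low counts. Gpd1 did not. RNA-seq libraries were made from mesenchymal stromal cells, which build and support connective tissue. One group came from skeletal muscle of the hindlimb, the other from combined inguinal, axillary, brachial and cervical lymph nodes. All mice were C57BL/6, 8 weeks old, at homeostasis, and the labels name no transgene or treatment. Each group had 3 libraries of 1000 double-sorted cells, called biological replicates by the submitters. Muscle libraries are numbered 2, 3 and 4 and lymph node libraries 1, 2 and 3, as in the table. Since 2 muscle titles carry one number with different letters, separate animals are not assured, and the p-values measure only the spread between these libraries. Which markers the sort used is not stated in the labels.

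Cells take up fatty acids from triglyceride-rich lipoproteins after lipoprotein lipase, tethered at the capillary wall, has cut the triglyceride. Fatty acids then cross the membrane, partly through the scavenger receptor CD36, and are carried in the cytoplasm by fatty acid-binding proteins. They are burned in mitochondria and peroxisomes or are esterified and kept in lipid droplets coated by perilipins, from which lipases release them again. Apolipoproteins carry lipid between cells. In adipocytes and their precursors many of these genes are known targets of PPAR gamma, a nuclear receptor that senses fatty acids. Stromal cells of muscle include precursors that can become adipocytes, and lymph nodes lie within fat depots.

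Total counts ran from 415460 to 1844874 in muscle and from 1851940 to 2397134 in lymph node libraries. Levels are given as CPM, counts scaled to a common TMM-adjusted library size, in which a single count was worth between 0.527 and 2.69 CPM in muscle and between 0.43 and 0.571 CPM in lymph node libraries. Muscle library 4, the shallowest, stood apart. Its Pearson r with the other muscle libraries was 0.702 and 0.705 across log2 CPM of 10823 tested genes, which are not independent replicates, whereas muscle libraries 2 and 3 had r = 0.952. It also held blood cell transcripts: 16 macrophage and monocyte markers summed to 879 CPM there, and to between 25.3 and 43.7 CPM in the other 5 libraries. Each fitted fold change of the 9 tested genes among the 10 is therefore given with and without it. All 15 mesenchymal stromal markers were tested in both tissues and none was called by edgeR or DESeq2 with all libraries (1 higher and 1 lower at an unadjusted p under 0.05). Without muscle library 4, edgeR called Lum (log2 fold change -0.52, adjusted p = 0.0298) and Dpp4 (-0.55, adjusted p = 0.0152) lower in muscle. It called Mfap5 higher (0.83, adjusted p = 4.85e-04). In that fit 7.58% of all tested genes were called lower and 4.79% higher. They summed to between 74300 and 94400 CPM in muscle and between 91000 and 112000 CPM in lymph node libraries.

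Cd36, Angptl4, Fabp4, Plin4, Lpl and Plin2, 6 of the 10 genes, fell in muscle cells, and none rose. The test was edgeR's two-sided quasi-likelihood F test, with p adjusted after Benjamini and Hochberg over all tested genes and called under 0.05. DESeq2 also called 6 lower and 0 higher, and at an unadjusted p under 0.05 edgeR gave 7 lower and 0 higher. Over all tested genes, 2.86% were called lower and 1.46% higher in muscle. Levels of the tissues did not overlap for these 6 genes and for Apoe, each lower in all 3 muscle libraries. Over all tested genes 13.7% were lower and 9.93% higher in muscle without overlap, 23.6% in all. Cd36, Fabp4 and Plin4 had fewer than 10 counts in each muscle library and passed the filter through the lymph node libraries, so they could enter the test only by being higher there. Angptl4, with 3 counts in muscle library 3, could not have passed on the muscle libraries alone and also needed the lymph node libraries. Without muscle library 4, 7 of the 10 fell, Apoe being the added gene, where 7.58% of all tested genes were called lower and 4.79% higher. The genes together made up 0.105%, 0.116% and 0.163% of the scaled counts of muscle libraries 2, 3 and 4. They made up 0.467%, 0.5% and 0.466% in lymph node libraries 1, 2 and 3. In bulk libraries, fewer cells that express a gene and less RNA of it per cell cannot be told apart.

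**Figure D1:**
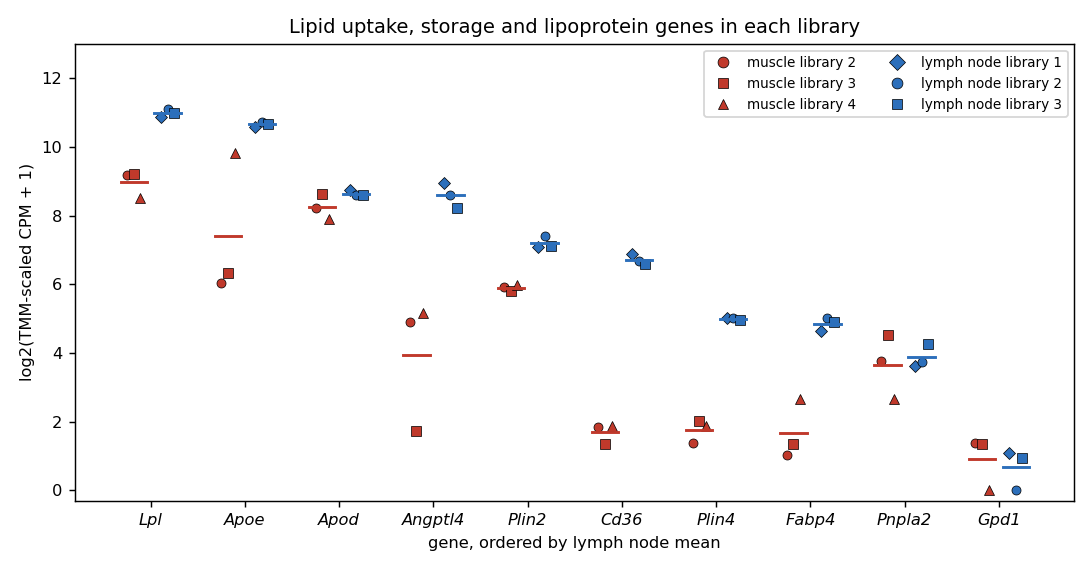
Level of each of the 10 genes in each library, as log2 of TMM-scaled CPM plus 1, with muscle libraries (red) left of lymph node libraries (blue) and bars at the group means of the plotted values. Cd36, Plin4, Fabp4, Angptl4, Lpl, Plin2 and Apoe lie lower in every muscle library than in any lymph node library, and muscle library 4 stands far above the other muscle libraries for Apoe (906 CPM there, and 64.4 and 79.9 CPM in muscle libraries 2 and 3).

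Promoter sequence is shown for Cd36, Plin2 and Plin4, the called genes among the 6 of 10 with a window in the RefSeq promoter table (GRCm38.p6). Each run is the 250 bases before the annotated start, on the minus strand, which is the strand of the gene. The windows lie at chr5:17835897-17836146 for Cd36, chr4:86670060-86670309 for Plin2 and chr17:56109783-56110032 for Plin4. Capitals mark a match to a direct repeat of AGGTCA with 1 base between the copies and at most 1 mismatch in each copy, the layout that PPAR and its partner RXR are known to bind, searched on both strands.
Cd36: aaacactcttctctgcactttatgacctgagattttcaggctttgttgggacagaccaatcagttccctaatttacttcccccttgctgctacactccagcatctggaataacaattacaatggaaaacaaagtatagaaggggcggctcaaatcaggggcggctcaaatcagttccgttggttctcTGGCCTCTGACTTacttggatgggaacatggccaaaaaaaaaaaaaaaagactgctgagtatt
Plin2: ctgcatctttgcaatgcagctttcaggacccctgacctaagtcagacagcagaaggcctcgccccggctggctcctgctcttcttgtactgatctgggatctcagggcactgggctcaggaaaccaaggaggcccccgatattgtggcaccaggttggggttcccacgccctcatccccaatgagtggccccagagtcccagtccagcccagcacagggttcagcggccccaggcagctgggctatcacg
Plin4: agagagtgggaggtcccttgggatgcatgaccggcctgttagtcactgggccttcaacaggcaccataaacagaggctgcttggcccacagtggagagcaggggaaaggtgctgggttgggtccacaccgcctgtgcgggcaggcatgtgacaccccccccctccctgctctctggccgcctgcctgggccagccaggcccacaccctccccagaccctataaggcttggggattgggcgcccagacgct
The Cd36 window held 1 match, on the opposite strand, whose leftmost base lies at -63 from the start, with 2 mismatches in all. Of 32817 promoter windows of 300 bases (250 before and 50 after the start), 2.4% held such a match. The RefSeq start of Cd36 is 179 bases from the nearest start in GENCODE M21. No match was found in the windows of Plin2, Plin4, Apod, Apoe and Pnpla2. The AP-1 motif TGACTCA, searched on both strands and sharing the letters TGAC with the reverse complement of AGGTCA, was in none of the windows of these 6 genes and in 5.2% of all windows. GC content was 43% in the Cd36, 60.7% in the Plin2 and 65% in the Plin4 window.

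Lpl encodes lipoprotein lipase, the secreted enzyme that frees fatty acids from circulating triglyceride (chromosome 8, 68880491 to 68907448, GRCm38). It measured 582, 593 and 368 CPM in muscle libraries 2, 3 and 4. Lymph node libraries 1, 2 and 3 had 1886, 2189 and 2043 CPM. Muscle libraries were all below the lymph node libraries, and muscle library 4 was the lowest. The mean was 514 ± 126.5 CPM in muscle cells, against 2039 ± 151 CPM in lymph node cells (SD, n = 3 each), 3.94-fold lower in muscle (log2 fold change, muscle minus lymph node, -1.98 ± 0.22 SE, edgeR adjusted p = 0.00136). Without muscle library 4 the log2 fold change was -1.80 ± 0.14 (adjusted p = 5.74e-07).

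Angptl4 encodes angiopoietin-like 4, a secreted inhibitor of lipoprotein lipase that is induced by fasting, hypoxia and PPAR ligands (chromosome 17, 33773750 to 33781830). It measured 29.0, 2.31 and 34.9 CPM in muscle libraries 2, 3 and 4. Levels were 497, 389 and 300 CPM in lymph node libraries 1, 2 and 3. The spread was wide within muscle, where library 3 held 3 counts and library 2 held 55, yet no muscle library came near the lymph node level. The gene was 19.7-fold lower in muscle (-4.30 ± 0.61, adjusted p = 0.00462), and 22.8-fold lower without muscle library 4. The size depends on other muscle libraries: the log2 fold change was -5.03 without muscle library 2 and -3.68 without muscle library 3. Inhibitor and enzyme did not keep a fixed proportion. Per kilobase of merged exons, the level of Angptl4 was 0.148, 0.0115 and 0.281 times that of Lpl in muscle libraries 2, 3 and 4. It was 0.778, 0.526 and 0.434 times that of Lpl in lymph node libraries 1, 2 and 3.

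Of 7 tested genes of a 16-gene list of the lipase system that includes Lpl and Angptl4, no other was called by edgeR or DESeq2 with all libraries. Without muscle library 4, Pcsk6, a protease that cuts lipoprotein lipase, rose (0.91 ± 0.14, edgeR adjusted p = 5.65e-04), at 444 and 464 CPM in muscle libraries 2 and 3 and 161 CPM in muscle library 4, against 202, 257 and 260 CPM in lymph node libraries 1, 2 and 3. Uncalled genes of the lists are named here and below for their known role, after their values were seen. Lmf1, needed to fold the lipase, had a mean of 44.9 ± 5.65 CPM in muscle cells, against 37.6 ± 3.01 CPM in lymph node cells (adjusted p = 0.704). Gpihbp1, the capillary anchor of the lipase, had no count in any muscle library and 3 counts over the lymph node libraries.

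Cd36 encodes a scavenger receptor that takes up long-chain fatty acids and oxidised lipoproteins (chromosome 5, 17781690 to 17888801). It had 5, 2 and 1 counts in muscle libraries 2, 3 and 4, which is 2.64, 1.54 and 2.69 CPM. Counts were 206, 236 and 208 in lymph node libraries 1, 2 and 3, which is 118, 101 and 94.7 CPM. Cd36 had the largest fold change of the 9 tested genes and was nearly even within lymph node. It was 45.3-fold lower in muscle by the fit (-5.50 ± 0.32, adjusted p = 7.23e-05). At 8 muscle counts that standard error can understate counting error: the ratio of pooled counts, lymph node over muscle, was 46.2, with an exact 95% binomial counting interval from 23.3 to 107. The fold was 46.7 without muscle library 4. In this paragraph and below, counting intervals do not cover PCR copies or the spread between libraries.

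Fabp4, the fatty acid-binding protein known from adipocytes, macrophages and capillary endothelium (chromosome 3, 10204088 to 10208576), had 2 counts in each muscle library. These were worth 1.06, 1.54 and 5.38 CPM in muscle libraries 2, 3 and 4. Lymph node libraries 1, 2 and 3 had 24.0, 31.8 and 28.7 CPM. It was 15.4-fold lower in muscle (-3.94 ± 0.53, adjusted p = 0.00359) and 21.6-fold lower without muscle library 4. The pooled ratio, lymph node over muscle, was 17 (counting interval 7.64 to 46.9). The related genes Fabp5 and Fabp3 were near the limit of detection in both tissues. Fabp5 had 5 counts in the muscle libraries together and 16 in the lymph node libraries. For Fabp3 these counts were 2 in muscle and 0 in lymph node.

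Of 13 tested fatty acid uptake and binding genes, 3 fell, against 2.86% of all tested genes, and 10 were not called. The 3 are Cd36, Fabp4 and Lpl, all among the genes the list was built around. Among those not called, the caveolar protein gene Cav1 measured 267, 227 and 75.3 CPM in muscle libraries 2, 3 and 4, against 511, 321 and 294 CPM in lymph node libraries 1, 2 and 3 (adjusted p = 0.298). The fatty acid transporter gene Slc27a1 had 10.6, 13.1 and 8.06 CPM in muscle libraries 2, 3 and 4, against 39.4, 19.8 and 18.7 CPM in lymph node libraries 1, 2 and 3 (-1.21 ± 0.42, adjusted p = 0.188). Both lay lower in every muscle library without passing the test, as did Acsl5. The transporter gene Slc27a4 lay higher in every muscle library and was not called (edgeR adjusted p = 0.354). It measured 19.5, 23.8 and 37.6 CPM in muscle libraries 2, 3 and 4. Lymph node libraries 1, 2 and 3 had 14.3, 17.6 and 11.4 CPM of it. Over all tested genes, 13.7% were lower and 9.93% higher in muscle without overlap. Dbi, the acyl-CoA-binding protein gene, had a mean of 48.0 ± 22.0 CPM in muscle cells, against 80.5 ± 12.8 CPM in lymph node cells (adjusted p = 0.377). Acsl3, an acyl-CoA synthetase gene, had 23.2, 21.5 and 0 CPM in muscle libraries 2, 3 and 4, against 10.9, 5.59 and 7.28 CPM in lymph node libraries 1, 2 and 3. It was not called with all libraries (adjusted p = 0.474) and rose without muscle library 4 (1.52 ± 0.35, edgeR adjusted p = 0.00998). These lists were chosen with earlier results of the same libraries known.

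Lipid droplet coats differed in size of change. Plin2, the perilipin found in most cell types and stabilised by stored lipid (chromosome 4, 86648386 to 86670060), measured 59.6, 55.3 and 61.8 CPM in muscle libraries 2, 3 and 4. It measured 134, 168 and 138 CPM in lymph node libraries 1, 2 and 3. It was the most even of the 10 genes within muscle, with a coefficient of variation of 5.61%, and muscle library 4 was at the level of the others. At 113, 72 and 23 counts, counting error alone is expected to exceed that spread. Plin2 was 2.5-fold lower in muscle (-1.32 ± 0.20, adjusted p = 0.00589), and 2.56-fold lower without muscle library 4. Its call was lost without lymph node library 2 (-1.23, adjusted p = 0.0592).

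Plin4, a perilipin of adipocytes that coats nascent droplets (chromosome 17, 56100591 to 56109803), had 3, 4 and 1 counts in muscle libraries 2, 3 and 4, or 1.58, 3.07 and 2.69 CPM. It measured 31.4, 31.4 and 30.1 CPM in lymph node libraries 1, 2 and 3. The lymph node values were the most even of all 10 genes, with a coefficient of variation of 2.49%. At 55, 73 and 66 counts, counting error alone is expected to exceed that spread, so it does not measure how steady the gene is. Plin4 was 13.1-fold lower in muscle (-3.72 ± 0.42, adjusted p = 0.00143), 13.7-fold without muscle library 4, with a pooled ratio, lymph node over muscle, of 13.8 (counting interval 6.86 to 32.4). Exons of Plin4 overlap those of Hdgfl2 on the opposite strand, and the strand setting of the counting is not given. Hdgfl2 itself averaged 73.4 ± 34.3 CPM in muscle cells, against 62.2 ± 8.82 CPM in lymph node cells (adjusted p = 0.888). The level of Plin2 per kilobase was 62, 29.7 and 37.8 times that of Plin4 in muscle libraries 2, 3 and 4, where Plin4 rests on those few counts. It was 7.02, 8.8 and 7.56 times in lymph node libraries 1, 2 and 3.

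Of 13 tested droplet coat and growth genes no others than Plin2 and Plin4 were called. Plin3, a perilipin that moves between cytosol and droplets, had a mean of 84.6 ± 22.6 CPM in muscle cells, against 119 ± 20.8 CPM in lymph node cells (-0.45 ± 0.24, adjusted p = 0.459). Plin1, the coat protein of the large adipocyte droplet, had 1 count over the muscle and 9 counts over the lymph node libraries. Cidec, which fuses droplets in adipocytes, had none over the muscle and 2 over the lymph node libraries.

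**Figure D2:**
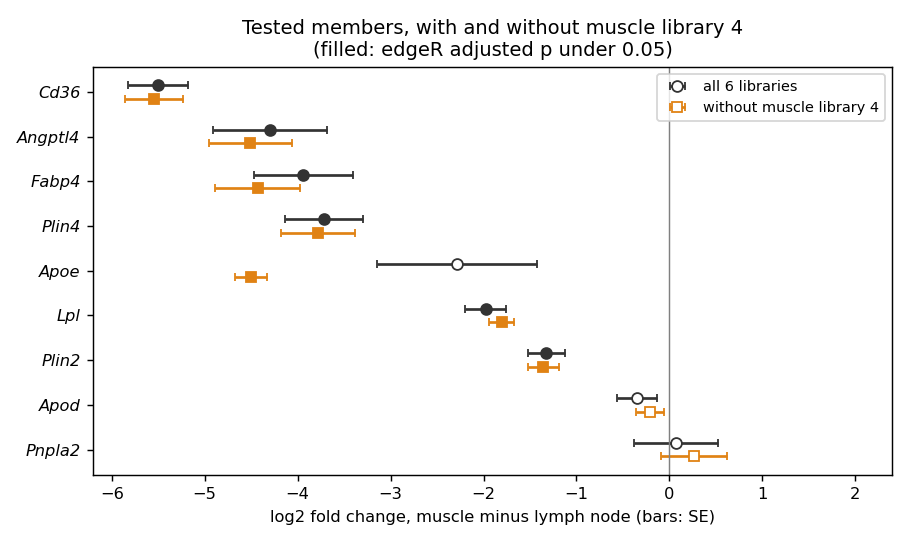
Log2 fold change, muscle minus lymph node, of the 9 tested genes with all 6 libraries (circles) and without muscle library 4 (squares), with SE bars and filled symbols for adjusted p under 0.05. Cd36, Angptl4, Fabp4, Plin4, Lpl and Plin2 stay below 0 in both fits, Apoe moves to -4.50 without that library, and Apod and Pnpla2 stay near 0.

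Of the enzymes at the entry to and exit from triglyceride, Gpd1 was not tested and Pnpla2 was not called. Gpd1, which makes glycerol-3-phosphate for triglyceride (chromosome 15, 99717515 to 99725005), had 3, 2 and 0 counts in muscle libraries 2, 3 and 4. Its lymph node counts were 2, 0 and 2 in libraries 1, 2 and 3. The pooled ratio, muscle over lymph node, was 2.2 with a counting interval from 0.473 to 11.1, so no difference was detectable at this depth. Its exons overlap Gm16537 on the opposite strand, which had 1 count in each tissue. The related gene Gpd1l carried most of the signal of this enzyme pair, with 54.9, 51.5 and 78.0 CPM in muscle libraries 2, 3 and 4. Lymph node libraries 1, 2 and 3 had 54.8, 61.4 and 46.0 CPM (adjusted p = 0.867).

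Pnpla2 encodes adipose triglyceride lipase, which makes the first cut of stored triglyceride (chromosome 7, 141455198 to 141460743). It measured 12.7, 22.3 and 5.38 CPM in muscle libraries 2, 3 and 4, and 11.4, 12.5 and 18.2 CPM in lymph node libraries 1, 2 and 3. The groups overlapped, and the log2 fold change was 0.07 ± 0.46 (adjusted p = 0.973), or 0.26 ± 0.35 without muscle library 4. None of 11 tested lipolysis genes was called by edgeR or DESeq2 with all libraries (0 higher and 1 lower at an unadjusted p under 0.05), and without muscle library 4, 2 rose and 1 fell of 12. Abhd5, the coactivator of the lipase, had a mean of 64.0 ± 17.1 CPM in muscle cells, against 76.3 ± 13.9 CPM in lymph node cells (adjusted p = 0.785). For its inhibitor G0s2 the means were 29.5 ± 7.63 CPM in muscle cells and 29.3 ± 7.71 CPM in lymph node cells (adjusted p = 0.981). Of 14 tested triglyceride and glycerol-3-phosphate synthesis genes none was called by edgeR or DESeq2, 0 had an unadjusted p under 0.05, and none of 15 was called without muscle library 4. Over all tested genes edgeR called 4.32% with all libraries and 12.4% without muscle library 4.

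Apoe encodes apolipoprotein E, which binds lipoprotein particles to their receptors and is secreted by macrophages and many stromal cells (chromosome 7, 19696109 to 19699188). It measured 64.4 and 79.9 CPM in muscle libraries 2 and 3, and 906 CPM in muscle library 4. Lymph node libraries 1, 2 and 3 had 1535, 1687 and 1627 CPM. Muscle libraries 2 and 3 were thus close to each other, muscle library 4 was far above them, and all 3 lay below the lymph node libraries, which were even (coefficient of variation 4.75%). With all libraries the log2 fold change was -2.28 ± 0.86 and not called (adjusted p = 0.237). Without muscle library 4 it was -4.50 ± 0.17, which is 22.7-fold lower in muscle (adjusted p = 1.59e-09).

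Blood cell markers moved with Apoe in muscle library 4. Ptprc, the pan-leukocyte CD45 gene, measured 589 CPM there and at most 9.22 CPM elsewhere. The other 15 macrophage and monocyte markers summed to 290 CPM in muscle library 4 and to between 17.9 and 35.5 CPM elsewhere. Lyz2 reached 83.3, Ctss 91.4 and Cd14 51.1 CPM in that library, whereas Csf1r, Cd68 and C1qa had 0 counts in it. The 8 B cell markers summed to 3180 CPM in muscle library 4, 39.0 and 64.5 CPM in muscle libraries 2 and 3, and between 20.6 and 275 CPM in lymph node libraries. T cell and red blood cell markers were highest in muscle library 4 too, with sums of 554 and 626 CPM. The part of these cells in the Apoe level of that library was not tested. The lymph node level of Apoe stood beside macrophage and monocyte sums of 28.6 to 43.7 CPM.

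**Figure D3:**
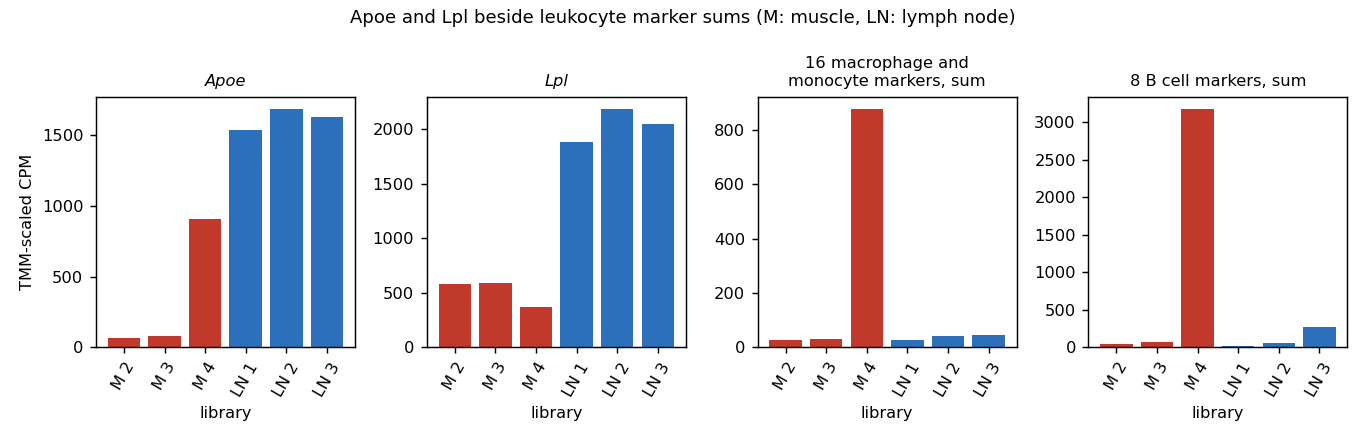
TMM-scaled CPM of Apoe and Lpl, and summed CPM of 16 macrophage and monocyte markers and of 8 B cell markers, in each of 3 muscle (red) and 3 lymph node (blue) libraries. Apoe and both marker sums are higher in muscle library 4 than in the other muscle libraries, whereas Lpl is lowest there (368 CPM).

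Apod encodes apolipoprotein D, a lipocalin that binds small lipids and is abundant in fibroblasts (chromosome 16, 31296192 to 31314808). It measured 298, 399 and 239 CPM in muscle libraries 2, 3 and 4, against 428, 387 and 384 CPM in lymph node libraries 1, 2 and 3. The groups overlapped through muscle library 3. The log2 fold change was -0.35 ± 0.21 (adjusted p = 0.519), and -0.21 ± 0.15 without muscle library 4 (adjusted p = 0.461). Of 6 tested apolipoprotein and lipocalin genes none was called by edgeR with all libraries, DESeq2 called 1 higher, and 1 higher and 2 lower had an unadjusted p under 0.05. Without muscle library 4, 1 of 8 rose and 2 fell, Apoe among those that fell. Over all tested genes of that fit, 4.79% were called higher and 7.58% lower. Some apolipoproteins of circulating particles were near 0. No count of Apoa1, Apoc1 or Apoc2 was found in muscle libraries, and lymph node libraries held 2 of Apoa1, 5 of Apoc1 and 0 of Apoc2. Apob, the structural protein of triglyceride-rich particles, was below the filter and higher in every muscle library, at 4.22, 8.45 and 8.06 CPM in muscle libraries 2, 3 and 4, against 3.43, 1.29 and 2.73 CPM in lymph node libraries 1, 2 and 3. These levels rest on few counts and were not tested: 8, 11 and 3 in the muscle and 6, 3 and 6 in the lymph node libraries.

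Levels of the 10 genes were compared per kilobase of merged exons. In muscle the mean order was Apoe, Apod, Lpl, Plin2, Angptl4, Pnpla2, Cd36, Fabp4, Plin4 and Gpd1. Apoe came first through muscle library 4 alone, with 30.1, 37.4 and 424 CPM per kilobase in muscle libraries 2, 3 and 4, where Apod had 115, 155 and 92.8 CPM per kilobase. Angptl4 and Pnpla2 overlapped in muscle, with 8.19, 0.651 and 9.87 CPM per kilobase of Angptl4 and 4.19, 7.38 and 1.78 CPM per kilobase of Pnpla2 in muscle libraries 2, 3 and 4, and their order turned round in library 3. In muscle, Cd36, Fabp4, Plin4 and Gpd1 could not be ranked, since each was at most 1.2 CPM per kilobase in every library and their ranges overlapped. In lymph node cells the order was Apoe, Lpl, Apod, Angptl4, Plin2, Cd36, Fabp4, Plin4, Pnpla2 and Gpd1. There Apoe averaged 756 ± 35.9, Lpl 195 ± 14.4, Apod 155 ± 9.56 and Angptl4 112 ± 27.9 CPM per kilobase (SD, n = 3). Ranges of Fabp4 and Plin4 overlapped in lymph node, as did those of Plin4 and Pnpla2, and the other neighbours above Gpd1 did not overlap. Among 10687 tested genes with a length, Cd36 stood at percentile 1.5 of the per-kilobase level in muscle and at 88.8 in lymph node cells. Cd36 passed the filter through its lymph node counts, so a low rank in muscle among tested genes was set by the filter. Angptl4 stood at 50.7 in muscle and 97.3 in lymph node cells, and Apod at 98.2 in muscle and 98 in lymph node cells. Lpl was high in both tissues, at 94.7 in muscle and 98.4 in lymph node cells.

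Beyond the 10, 148 other genes of the 8 lipid lists were in the table and 90 were tested. Of these, 1 rose and 6 fell in muscle, or 1.11% and 6.67%, against 1.46% and 2.86% of all tested genes. The median log2 fold change was -0.24 over the 90 genes and 0.02 over all tested genes. Of 20 tested fatty acid oxidation and PPAR response genes 5 fell and none rose by edgeR, where DESeq2 called 1 higher and edgeR gave 1 higher at an unadjusted p under 0.05. Pparg, the nuclear receptor named above, had 2, 2 and 0 counts in muscle libraries 2, 3 and 4, or 1.06, 1.54 and 0 CPM. Lymph node libraries 1, 2 and 3 had 21.1, 30.5 and 18.7 CPM (-4.31 ± 0.58, adjusted p = 0.00341). With 4 muscle counts in all, it too passed the filter through the lymph node libraries and could be called only as lower in muscle. The related receptor gene Ppard was low, with a mean of 5.62 CPM in muscle cells and 6.47 CPM in lymph node cells (adjusted p = 0.925), and Ppara was below the filter.

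Pdk4, the kinase that turns cells from glucose to fatty acid oxidation, had a mean of 11.3 ± 2.78 CPM in muscle cells, against 44.9 ± 2.01 CPM in lymph node cells (-1.90 ± 0.28, adjusted p = 0.0057). That call was lost without lymph node library 2 or 3 (adjusted p = 0.0592 and 0.0523). Acaa2, a thiolase of mitochondrial oxidation that falls outside the naming rule, also fell (-1.08 ± 0.25, adjusted p = 0.0418). Leaving out muscle library 4 kept that call, and leaving out any of the other 5 libraries, or scaling to total counts, lost it.

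Of 17 tested lipoprotein receptor and cholesterol efflux genes, 1 rose and 1 fell, or 5.88% each. Over all tested genes with all libraries, 1.46% were called higher and 2.86% lower. Sorl1, a sorting receptor of the lipoprotein receptor family, ran between 19.2 and 43.0 CPM in muscle libraries, against 3.19 to 7.73 CPM in lymph node libraries (2.33 ± 0.51, adjusted p = 0.0325). Pltp, the phospholipid transfer protein, had a mean of 32.5 ± 20.7 CPM in muscle cells, highest in muscle library 4 at 56.5 CPM, against 84.0 ± 7.73 CPM in lymph node cells (-1.59 ± 0.36, adjusted p = 0.0407). Each of these calls held when muscle library 4 was left out and failed when any of the other 5 libraries was (adjusted p to 0.181 for Sorl1 and 0.237 for Pltp). Lrp1, a large receptor that takes up apolipoprotein E-rich particles, was high in both tissues, at 3019 ± 61.9 CPM in muscle cells, against 2935 ± 248 CPM in lymph node cells (0.04 ± 0.17, adjusted p = 0.953). Abca1, which exports cholesterol, measured 101, 172 and 223 CPM in muscle libraries 2, 3 and 4, against 308, 248 and 294 CPM in lymph node libraries 1, 2 and 3 (adjusted p = 0.179). Without muscle library 4, 8 of 95 tested genes of the lists rose and 13 fell. Over all tested genes of that fit, 4.79% were called higher and 7.58% lower. Of the 13 that fell, 5 were receptor and efflux genes, Abca1 included (-1.07, edgeR adjusted p = 0.00214).

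**Figure D4:**
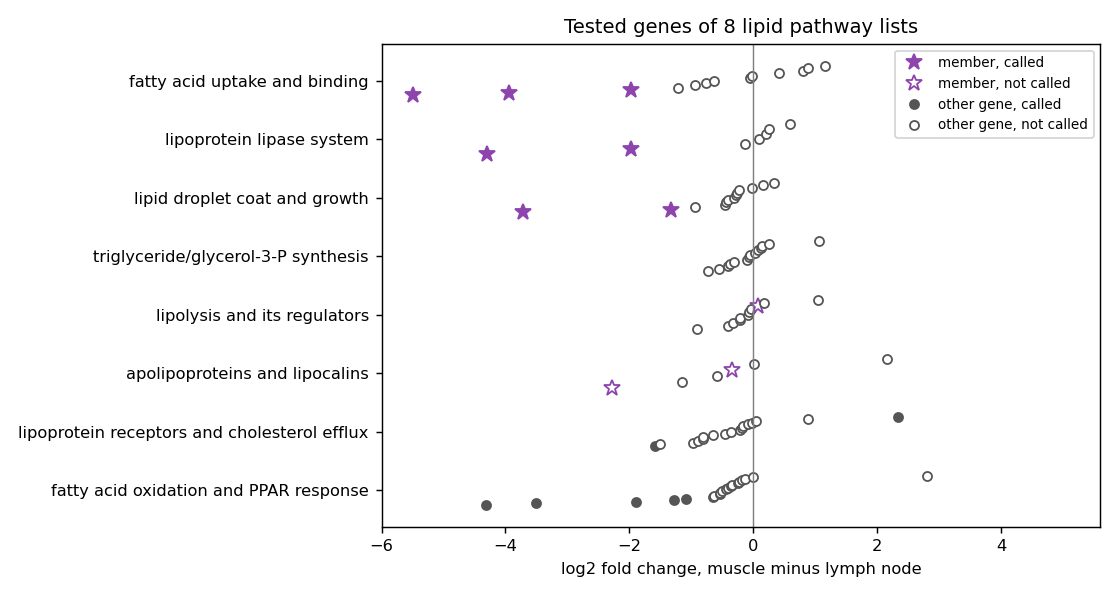
Log2 fold change, muscle minus lymph node, of every tested gene of 8 lipid lists, with stars for the tested genes among the 10 described here and filled symbols for adjusted p under 0.05. Calls in uptake, lipase and droplet lists are all stars (Cd36, Fabp4, Lpl, Angptl4, Plin4 and Plin2), and 5 other genes are filled in the oxidation and PPAR response list.

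Several markers of adipocytes and endothelium, cells that use the same genes, were near 0 in most libraries. Tek, Ly6c1 and Lipe were not, nor was Ptprb in muscle, and Car3 was near 0 only in muscle. Lipe, an adipocyte marker, ran between 9.22 and 16.1 CPM in muscle and between 11.4 and 17.7 CPM in lymph node libraries. It was not called (edgeR adjusted p = 0.723). Ptprb, an endothelial marker, ran between 8.97 and 43.0 CPM in muscle and between 1.72 and 6.28 CPM in lymph node libraries. It lay higher in every muscle library and was not called (edgeR adjusted p = 0.151). Of 16 adipocyte markers, Adipoq had 2 counts over the muscle and 6 over the lymph node libraries, and Retn had none in any library. The adipocyte list summed to between 17.7 and 23.7 CPM in muscle and between 67.4 and 119 CPM in lymph node libraries. Without Car3, set aside after its values were seen, it summed to between 15.4 and 21.6 CPM in muscle and between 22.8 and 29.1 CPM in lymph node libraries. Car3, a carbonic anhydrase of fat and muscle, measured 2.11, 2.31 and 0 CPM in muscle libraries 2, 3 and 4. Its level was 38.3, 94.1 and 71.5 CPM in lymph node libraries 1, 2 and 3, and it was called 34-fold lower in muscle (edgeR adjusted p = 0.00114). With 7 muscle counts in all, Car3 passed the filter through the lymph node libraries. Among blood endothelial markers, Cldn5 had 0 counts in all libraries and Cdh5 had 4 counts over the muscle and 5 over the lymph node libraries. Pecam1 measured 59.1 CPM in muscle library 4 and at most 3.84 CPM elsewhere. The endothelial list summed to between 411 and 785 CPM in muscle and between 656 and 759 CPM in lymph node libraries, mostly Tek and Ly6c1. Other marker lists also differed between the tissues. Mural cell markers summed to between 84.4 and 118 CPM in muscle and between 186 and 205 CPM in lymph node libraries, and Abcc9 among them fell 6.01-fold in muscle (edgeR adjusted p = 0.00143). Muscle fibre markers summed to 84.4, 87.6 and 29.6 CPM in muscle libraries 2, 3 and 4, against 13.7 to 18.5 CPM in lymph node libraries. Tenocyte markers summed to 156, 272 and 34.9 CPM in muscle libraries 2, 3 and 4, against 15 to 57.7 CPM in lymph node libraries, and Thbs4 among them rose 16.5-fold (edgeR adjusted p = 0.00587). Satellite cell markers summed to between 79.1 and 108 CPM in muscle and between 145 and 202 CPM in lymph node libraries. Among them Vcam1 fell and Musk rose in muscle. Schwann cell markers summed to between 707 and 881 CPM in muscle and between 502 and 587 CPM in lymph node libraries. The single genes did not all go that way. Of 3 tested, none was called, 2 had a negative and 1 a positive log2 fold change. Without muscle library 4, Mbp fell (-3.07, edgeR adjusted p = 3.91e-04), Pmp22 rose (0.75, adjusted p = 0.00122), and S100b and Cdh19 were not called. Immediate early genes, which respond within minutes to handling and signals, moved with the tissue: 19 of 25 fell in muscle, against 2.86% of all tested genes. They summed to between 3750 and 4500 CPM in muscle and between 23600 and 25700 CPM in lymph node libraries. The part of these differences in the lipid genes was not tested.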

How the data were processed

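Raw counts per gene symbol were deposited by the authors, 1 column per library. Per the labels' protocols, oligo(dT)-primed cDNA was amplified, tagmented and sequenced as paired reads of 25 bases. The submitters' processing notes name STAR 2.5.4, featureCounts and mm10. Annotation, strand setting and the handling of multiply aligned reads: not given in the sources used here. Muscle columns (2, 3, 4) were used as 3 replicates not linked to titles.

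Tests used edgeR 4.0.16 (R 4.3.3): filterByExpr (10823 genes kept), TMM, and the quasi-likelihood F test on tissue over all 6 libraries, with Benjamini-Hochberg adjustment over all tested genes. Positive log2 fold changes mean higher in muscle, and SE is the absolute log2 fold change over the square root of F. Members and lists were chosen with earlier results of these data known. Named genes are the 10 members and, per list, up to 4 called genes in each direction, with others marked where named. Some called list genes are not reported here. Symbols were matched to GENCODE M21 (93.1% found) for positions and merged exon lengths. At most 11.4% (Gpd1) of a member's 25-base words occur in other genes' transcripts. Libraries of a tissue differed beyond sampling noise (chi-square statistics of 2.39 to 23.5 per degree). Alternatives were other scalings and filters, DESeq2 1.42.0, limma-voom (limma 3.58.1), library weights, summed muscle pairs, a replicate block and leaving out each library.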

Additional observations from a re-analysis of the deposited data

How the results depend on the processing

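The count of lipid genes called lower in muscle, 6, lay between 5 and 7 under all 18 alternatives, and none was called higher. Cd36, Lpl, Fabp4, Plin4 and Angptl4 kept their call in all 18, and Plin2 in 17 of 18. Apoe was called in 7 of 18 (no filter, limma-voom with and without library weights, without muscle library 4, muscle library 4 summed with 2 or 3, and the replicate block), with log2 fold changes from -4.54 to -1.79 and adjusted p up to 0.509. The replicate block takes nothing for the tissue difference from muscle library 4, which is alone in its block. Pnpla2 and Apod were called in none of the 18 (Pnpla2 from -0.45 to 0.26, Apod from -0.58 to -0.17).

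The larger counts moved more. Over all tested genes, 158 were higher and 310 lower. No filter gave 419 higher and 526 lower, DESeq2 260 higher, and limma-voom with library weights 552 higher and 814 lower. Summing muscle libraries 2 and 3 gave 55 higher and 167 lower, 2 and 4 gave 563 and 872, and 3 and 4 gave 494 and 772. Leaving out 1 library gave 28 (lymph node library 2) to 539 (muscle library 4) higher and 114 to 852 lower. Among the other lipid list genes, 1 was higher and 6 lower. Upper-quartile scaling, total-count scaling and limma-voom gave 2 higher, DESeq2 3, no filter 4 higher and 12 lower, and library weights 7 higher and 12 lower. Summed pairs gave 0 and 2 (libraries 2 and 3), 8 and 15 (2 and 4), and 8 and 14 (3 and 4). Leaving out 1 library gave 0 to 8 higher and 1 to 13 lower. The cause was not tested.

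Column numbers 2 and 3 occur in both tissues. Deviations of same-numbered libraries from their tissue means had r of -0.03 and 0.02. Those means include muscle library 4, and muscle columns are not linked to titles. The check therefore cannot tell whether a shared number means a shared animal. With a replicate block by column number, 627 genes were higher and 903 lower. Among the other lipid list genes 8 were higher and 12 lower, and 7 lipid genes were lower. In that fit muscle library 4 and lymph node library 1 are each alone in their block. The tissue difference there rests on libraries 2 and 3 of each tissue.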

Other observations

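Clu and Ucp2, genes of the lipid lists picked after their values were seen, set muscle library 4 apart from muscle libraries 2 and 3. Clu, which encodes clusterin (apolipoprotein J), measured 121, 109 and 5.38 CPM in muscle libraries 2, 3 and 4, against 24.0, 17.2 and 16.9 CPM in lymph node libraries 1, 2 and 3. It was not called with all libraries (2.16 ± 0.61, edgeR adjusted p = 0.0973), and without muscle library 4 it was 5.99-fold higher in muscle (adjusted p = 7.29e-07). Ucp2, a mitochondrial carrier also abundant in leukocytes, ran the other way, at 39.6, 33.0 and 159 CPM in muscle libraries 2, 3 and 4, against 17.7, 6.01 and 6.37 CPM in lymph node libraries 1, 2 and 3. It was not called with all libraries (adjusted p = 0.0542), and was 3.75-fold higher in muscle without muscle library 4 (adjusted p = 0.00377).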
